A study of Mus musculus with 2 samples.

Results

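*Prf1* and *Gzmb*, the genes for perforin and granzyme B, are 2 of the 479 genes counted in place in lung sections of mice with small cell lung cancer (SCLC). They were chosen by name, and their level and their presence in the same cell were followed in cells with *Cd8a*, in cells with both *Cd3d* and *Cd3e* but no *Cd8a*, and in cells with none of these 3 genes. Xenium In Situ hybridizes barcoded probes to a fixed section and reads them by imaging, and each transcript is assigned to a segmented cell. The files name the genes as ENSMUSG00000037202 (*Prf1*) and ENSMUSG00000015437 (*Gzmb*), and where on the transcripts the probes lie is not given in the sources used here.

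RPR2 mice carry floxed *Rb1*, *Trp53* and *Rbl2*, which were deleted in the lung by adenoviral Cre given through the trachea at 10 weeks of age, and have wild-type *Cracd*. CRPR2 mice have the same alleles and treatment on a germline *Cracd* KO, so their lymphocytes lack *Cracd* as their tumor cells do. For each genotype, 1 section was analysed, and both came from 1 block on 1 slide. The lungs were collected at 1 fixed time after Cre, per the study's methods, and the sex of each mouse is not given in the labels. With 1 section per genotype there is no replicate, and genotype, mouse and section cannot be told apart. The intervals below are exact 95% intervals that cover counting error only. Those of levels, their ratios and shares of transcripts treat each transcript as independent. They are too narrow where the transcripts of a gene gather in few cells.

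Cytotoxic lymphocytes store perforin and granzymes in granules and release them onto a target cell. Perforin forms pores in the membrane of the target, and granzyme B, a serine protease that enters through them, cleaves caspases and other substrates and starts apoptosis. Natural killer cells and CD8 T cells are the main producers. *Cd8a* encodes a chain of the coreceptor of cytotoxic T cells, and *Cd3d* and *Cd3e* encode chains of the CD3 complex that all mature T cells carry. Of 30 genes of cytotoxic lymphocytes that were listed beside *Prf1* and *Gzmb*, 1 was on the panel, *Klra8*, which encodes the activating receptor Ly49H of natural killer cells. Natural killer cells could therefore not be named from markers here, and cells are called by the genes they hold.

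In the mouse genome (GRCm38.p6, RefSeq), *Prf1* lies on the forward strand at chr10:61297751-61304684 and *Gzmb* on the reverse strand at chr14:56258836-56262334. Because transcripts of both genes were found in the same cells, the stretch before each gene is shown, 165 bases for *Prf1* (chr10:61297586-61297750, which ends where its first annotated transcript begins) and 250 for *Gzmb* (chr14:56262335-56262584, reverse strand). Capitals mark matches on either strand to the RUNX core TGTGGT, the ETS core GGAAGT, the CRE core TGACGT and the AP-1 site TGAGTCA, motifs of factor families with known sites at genes of killer lymphocytes.
Prf1 upstream: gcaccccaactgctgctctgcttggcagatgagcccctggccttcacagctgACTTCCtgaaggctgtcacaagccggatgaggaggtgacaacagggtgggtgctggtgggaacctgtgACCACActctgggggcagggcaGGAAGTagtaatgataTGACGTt
Gzmb upstream: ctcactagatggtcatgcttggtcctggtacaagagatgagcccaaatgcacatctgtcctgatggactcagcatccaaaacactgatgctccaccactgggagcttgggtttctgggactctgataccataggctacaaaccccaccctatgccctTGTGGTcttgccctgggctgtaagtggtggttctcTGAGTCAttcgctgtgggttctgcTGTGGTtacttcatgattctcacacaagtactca
The *Prf1* stretch held 1 RUNX core on the other strand (ACCACA), an ETS core on each strand (ACTTCC and GGAAGT) and 1 CRE core. The *Gzmb* stretch held 2 RUNX cores and 1 AP-1 site. Of all 32851 promoters in the table, 14.05% held the RUNX core in the 250 bases, 19.7% the ETS core, 6.47% the CRE core and 4.46% the AP-1 site. In a window cut like that of *Prf1*, these shares were 9.52%, 11.8%, 2.80% and 2.88%. The RUNX core was the motif found before both genes. These are matches of letters and say nothing about binding.

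Among cells with at least 20 transcripts, 152915 in RPR2 and 340609 in CRPR2 (median, 101 transcripts in each), there were 1514 *Prf1* and 1683 *Gzmb* transcripts in RPR2 and 1845 and 2000 in CRPR2. Across the whole sections, the level of *Prf1*, in CPM (its transcripts over all gene transcripts, times 1e+06), was 92.9 (RPR2) and 49.4 (CRPR2), and that of *Gzmb* 103 and 53.6. Negative control probes averaged 2.75 and 2.29 CPM each, and the highest had 9.93 and 8.43 CPM. The sections shared 8 cell identifiers. Of the deleted genes, *Rb1* and *Trp53* were on the panel. *Rb1* was higher in cells with at least 2 transcripts of neuroendocrine (NE) markers than in the other cells (8831 against 3417 CPM in RPR2, 10331 against 3599 CPM in CRPR2), and *Trp53* was lower (930 against 1766 and 967 against 2199 CPM), and whether the probes lie in the deleted exons is not given. *Cracd* and *Rbl2* were not analysed here.

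Of the 3 classes, *Cd8a* cells had the highest level of both genes, and there the sections had close values. The RPR2 section held 1070 *Cd8a* cells, with 173 *Prf1* transcripts (1699 CPM, interval 1455 to 1972) and 103 *Gzmb* transcripts (1012 CPM, 826 to 1227). The CRPR2 section held 1485, with 242 *Prf1* transcripts (1525 CPM, 1339 to 1729) and 155 *Gzmb* transcripts (977 CPM, 829 to 1143). The intervals of the sections overlapped for both genes. The ratio of CRPR2 to RPR2 was -0.16 on the log2 scale for *Prf1* (-0.44 to 0.13) and -0.05 for *Gzmb* (-0.42 to 0.32), so that both intervals held 0.

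*Prf1* marked more *Cd8a* cells than *Gzmb* did. A *Prf1* transcript was present in 12.1% of *Cd8a* cells in RPR2 and 12.8% in CRPR2, and a *Gzmb* transcript in 3.93% and 5.05%. After each cell was thinned to 50 transcripts, the shares were 8.64% and 8.09% for *Prf1* and 2.92% and 3.49% for *Gzmb*. Cells that should lack both genes gave the background. NE-like cells, which held NE markers and none of the 3 T cell genes, had a *Prf1* transcript in 0.140% (RPR2) and 0.160% (CRPR2) of cells and a *Gzmb* transcript in 0.0841% and 0.124%. Their median depth was 102 and 98 transcripts, against 88 and 96 in *Cd8a* cells. *Gzmb* was in fewer cells but in larger numbers per cell. In RPR2, 14 of the 42 *Cd8a* cells with *Gzmb* had 3 or more transcripts of it, and 8 of the 129 with *Prf1* had 3 or more of that gene. In CRPR2, these numbers were 23 of 75 and 8 of 190.

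In the cells with *Cd3d* and *Cd3e* but no *Cd8a*, the genes went opposite ways between the sections. The 1521 such cells in RPR2 held 90 *Prf1* transcripts (629 CPM, 506 to 773) and 29 *Gzmb* transcripts (203 CPM, 136 to 291). The 2087 in CRPR2 held 83 *Prf1* transcripts (407 CPM, 324 to 505) and 136 *Gzmb* transcripts (667 CPM, 560 to 789). *Gzmb* was thus 3.29-fold higher in CRPR2 (log2 ratio 1.72, 1.13 to 2.35), whereas *Prf1* was 1.55-fold lower (log2 ratio -0.63, -1.08 to -0.18). The thinned shares of cells were 2.85% and 2.25% for *Prf1* and 0.803% and 2.04% for *Gzmb*. On these shares the *Prf1* ratio had an interval that held 0 (log2 ratio -0.34, -1.0 to 0.32). The *Gzmb* ratio on these shares was 1.34 with a wider interval (0.35 to 2.46).

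**Figure D1:**
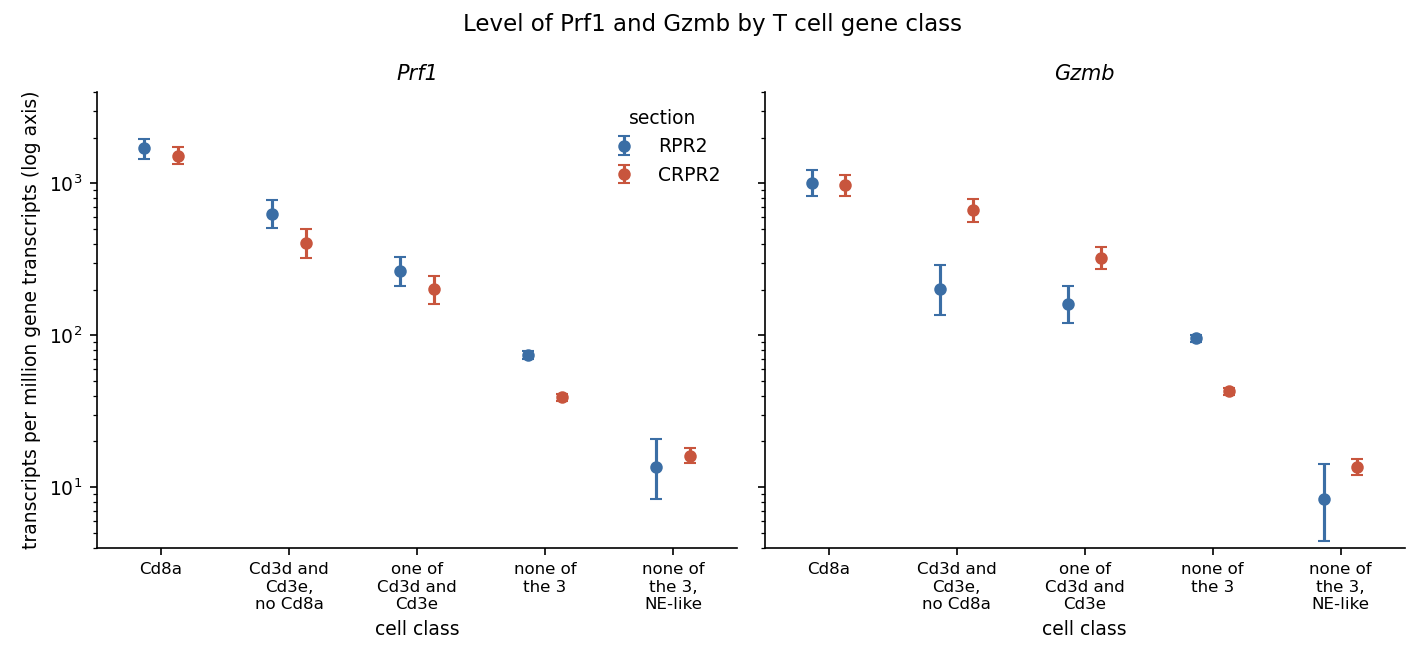
Level of *Prf1* (left) and *Gzmb* (right) in each class of cells, in CPM on a log axis, for the RPR2 (blue) and CRPR2 (red) sections. Points are the sum over all cells of a class and bars the exact 95% Poisson interval. Both genes have about the same level in *Cd8a* cells of both sections, *Gzmb* is 3.29-fold higher in CRPR2 in cells with *Cd3d* and *Cd3e* but no *Cd8a*, and NE-like cells lie lowest.

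Cells with *Cd3d* and *Cd3e* but no *Cd8a* transcript are called *Cd8a*-negative T cells from here on, for short. At this depth a count of 0 does not show that a cell lacks *Cd8a*. Much of the *Gzmb* of this class in CRPR2 lay in a few cells that also had *Klra8*. In CRPR2, 53 of the 2087 cells had *Klra8*, and they held 65 of the 136 *Gzmb* transcripts (11780 CPM) and 13 of the 83 *Prf1* transcripts (2356 CPM). In RPR2, 38 of the 1521 cells had *Klra8*, with 3 transcripts of each gene. The share of cells with *Klra8* was alike, 2.50% in RPR2 and 2.54% in CRPR2. Without the *Klra8* cells, an alternative chosen after the data had been seen, *Gzmb* had 187 (RPR2) and 358 CPM (CRPR2; log2 ratio 0.94, 0.27 to 1.65), and *Prf1* had 625 and 353 CPM (log2 ratio -0.82, -1.30 to -0.35). The difference in *Gzmb* kept its direction and was smaller. It did not rest on 1 cell, since the log2 ratio was 1.79 (1.16 to 2.47) without the cell with most *Gzmb* in each section. The transcripts were gathered in few cells all the same. In CRPR2, 16 cells with 3 or more *Gzmb* transcripts held 73 of the 136, and in RPR2, 4 such cells held 13 of the 29.

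Cells with 1 of *Cd3d* and *Cd3e* and no *Cd8a* fell in none of the 3 classes. They had 266 (RPR2) and 200 CPM (CRPR2) of *Prf1* and 161 and 324 CPM of *Gzmb*, below the cells with both for either gene in either section. The *Gzmb* intervals of the 2 classes overlapped in RPR2 (120 to 211 against 136 to 291). Here too *Gzmb* was higher in CRPR2 and *Prf1* was not.

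Against the panel, the difference in *Cd8a*-negative T cells was not unusual in size. Of the 330 genes with at least 100 CPM in one of the sections, 23% were at least 2-fold higher in CRPR2 and 11.8% at least 2-fold lower. *Gzmb* was past 2-fold (log2 ratio 1.67 with 10 CPM added to each level, the 42nd highest) and *Prf1* was not (-0.62). In *Cd8a* cells, 25.2% of 353 genes were past 2-fold higher and 12.7% lower, and neither *Prf1* nor *Gzmb* was among them. Of 4 checkpoint genes, 2 in *Cd8a* cells (*Lag3* and *Pdcd1*) and 4 in *Cd8a*-negative T cells were past 2-fold higher in CRPR2, with medians of 1.03 and 1.48 on the log2 scale, against 0.20 and 0.14 over all genes compared. Of 7 cycling genes, 5 and 6 were past 2-fold higher (medians 1.65 and 1.38). Cells with at least 2 NE transcripts went from 3.55% (RPR2) to 28.8% (CRPR2) of *Cd8a* cells and from 2.96% to 13.5% of *Cd8a*-negative T cells, and their part in the ratios of these lists was not tested. Of the T cell list (*Cd3d*, *Cd3e*, *Cd8a* and *Cd44*), none was past 2-fold in *Cd8a* cells (4 compared) or in *Cd8a*-negative T cells (3 compared). The first 3 of these genes formed the classes, so their ratios depend on that choice and are no separate result. *Satb1*, a chromatin organizer of T cells and the only listed transcription factor on the panel, had -0.69 in *Cd8a* cells and was past 2-fold lower (-1.04) in *Cd8a*-negative T cells. In cells with none of the 3 genes, 22.7% of 352 genes were past 2-fold higher and 24.7% lower. *Prf1* and *Gzmb* were under 100 CPM in both sections there and were not compared on this scale. All 7 cycling genes were past 2-fold higher in that class (median 2.40, against -0.12 over all genes compared). Neither of the 2 checkpoint genes compared was past 2-fold (median 0.62). *Cd44*, the 1 gene of the T cell list compared, had 0.40. Its level in these cells without T cell genes was 3266 (RPR2) and 4312 CPM (CRPR2), so it does not mark T cells here. *Satb1* was past 2-fold lower (-1.56). *Klra8* had -0.27 in *Cd8a* cells, 0.34 in *Cd8a*-negative T cells and -0.67 in cells with none.

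Within *Cd8a* cells, the level of *Prf1* was higher in cells with more *Cd8a* transcripts, up to 3. In cells with 1, 2, 3 and at least 4 *Cd8a* transcripts, *Prf1* had 595, 2214, 3164 and 3118 CPM in RPR2 and 657, 1903, 2620 and 3040 CPM in CRPR2. The last group was 5.24-fold above the first in RPR2 (log2 ratio 2.39, 1.77 to 3.04) and 4.62-fold in CRPR2 (2.21, 1.73 to 2.70). *Gzmb* had 518, 1073, 558 and 2245 CPM in RPR2 and 408, 1999, 1179 and 1724 CPM in CRPR2, with the 3-transcript group below its neighbors in both sections. At 4 or more *Cd8a* transcripts, 24.6% (RPR2) and 24.3% (CRPR2) of cells had *Prf1*. Cells with 1 *Cd8a* transcript made up 533 of the 1070 and 788 of the 1485 cells. *Cd8a* cells with neither *Cd3d* nor *Cd3e*, which had little *Prf1*, were kept in these groups, and their part in this order was not tested.

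**Figure D2:**
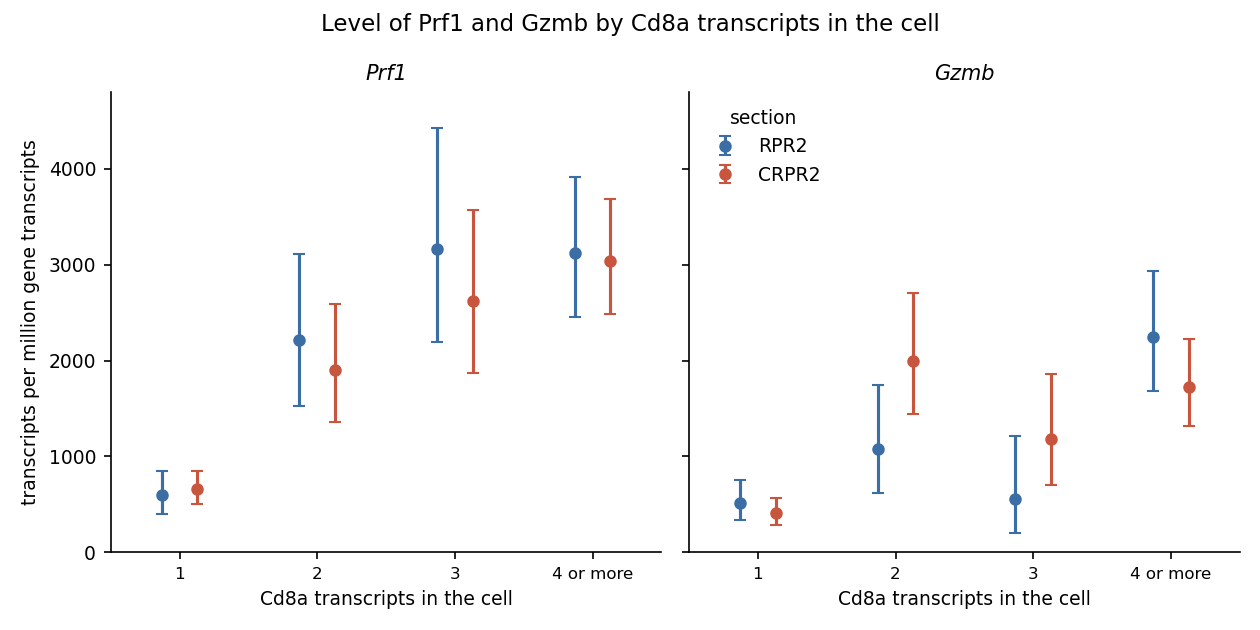
Level of *Prf1* (left) and *Gzmb* (right), in CPM, in *Cd8a* cells grouped by the number of *Cd8a* transcripts (horizontal axis), for RPR2 (blue) and CRPR2 (red). Points are sums over the cells of a group and bars exact 95% Poisson intervals. *Prf1* is lowest with 1 *Cd8a* transcript (595 and 657 CPM) and at 3118 and 3040 CPM with 4 or more, and *Gzmb* has no such even order.

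The effector transcripts of *Cd8a* cells sat in those that also had *Cd3d* or *Cd3e*. Such cells were 63.0% of *Cd8a* cells in RPR2 and 59.7% in CRPR2, and *Prf1* had 2735 and 2603 CPM in them and *Gzmb* 1654 and 1621 CPM. *Cd8a* cells without *Cd3d* and *Cd3e* had 147 and 197 CPM of *Prf1* and 49.1 and 183 CPM of *Gzmb*, the RPR2 values on 6 and 2 transcripts. Among *Cd8a* cells with *Prf1* or *Gzmb*, 96.8% (RPR2) and 92.6% (CRPR2) had *Ptprc*, which encodes the pan-leukocyte protein CD45, against 66.9% and 68.8% of those with neither. In CRPR2, 28.8% of *Cd8a* cells had at least 2 NE transcripts, against 3.55% in RPR2. *Prf1* was 721 CPM in those CRPR2 cells and 1925 CPM in the rest. Without them, the CRPR2 to RPR2 ratio was 0.12 for *Prf1* and 0.22 for *Gzmb* on the log2 scale, with intervals that held 0. Whether transcripts of neighboring cells were assigned to these cells was not tested.

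Cycling *Cd8a* cells had less *Prf1*. With *Mki67* or *Top2a*, genes of dividing cells, *Cd8a* cells had 930 CPM of *Prf1* in RPR2 (102 cells) and 961 CPM in CRPR2 (518 cells), against 1800 and 1900 CPM in the others (log2 ratios -0.95, -1.98 to -0.07, and -0.98, -1.43 to -0.56). *Gzmb* was higher in the cycling cells of RPR2 (2537 against 811 CPM, log2 ratio 1.64, 0.98 to 2.28) and nearly level in CRPR2 (930 against 1008 CPM, -0.12, -0.61 to 0.37). Where cells with any NE transcript were left out, the CRPR2 values were 1601 against 2260 CPM for *Prf1* (-0.50, -1.08 to 0.05) and 1281 against 914 CPM for *Gzmb* (0.49, -0.23 to 1.17). In *Cd8a*-negative T cells, *Gzmb* was higher with *Mki67* or *Top2a* in both sections, 941 against 103 CPM in RPR2 (log2 ratio 3.19, 2.04 to 4.37) and 903 against 532 CPM in CRPR2 (0.76, 0.26 to 1.27). The cycling cells of the 2 sections thus had close *Gzmb* levels, and the section difference was seen in the cells without these genes (log2 ratio of CRPR2 to RPR2 2.37, 1.50 to 3.35, against -0.06, -0.86 to 0.83). These levels rest on few *Gzmb* transcripts, 16 with and 13 without the cycling genes in RPR2 and 67 and 69 in CRPR2. The *Klra8* cells, with 65 of the 136 *Gzmb* transcripts of the class in CRPR2, were kept, and the split was not repeated without them.

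*Cd8a* cells with the checkpoint gene *Pdcd1* (PD-1) had more *Gzmb* in both sections, 3547 against 799 CPM in RPR2 (79 cells with *Pdcd1*) and 2624 against 715 CPM in CRPR2 (228 cells). *Prf1* was 3167 against 1576 CPM and 2071 against 1438 CPM. With *Lag3*, *Gzmb* had 3398 against 724 CPM in the CRPR2 cells, whereas only 23 *Cd8a* cells of RPR2 had *Lag3*, with 2 *Gzmb* transcripts. With *Havcr2* (TIM-3), *Gzmb* was 2163 against 957 CPM in RPR2 and 1888 against 883 CPM in CRPR2. With *Ctla4*, *Gzmb* was level in RPR2 (1006 against 1012 CPM, log2 ratio -0.01, -1.49 to 1.17) and 1502 against 920 CPM in CRPR2. *Prf1* was higher with *Lag3* (4673 against 1622 CPM in RPR2, 2132 against 1461 CPM in CRPR2) and with *Ctla4* (2516 against 1648 and 2090 against 1464 CPM). Of these log2 ratios, only that of *Lag3* in RPR2 had an interval beyond 0 (1.53, 0.54 to 2.37). *Prf1* had no common direction for *Havcr2*, at 3894 against 1595 CPM in RPR2 and 1012 against 1577 CPM in CRPR2. *Cd8a* cells with neither *Cd3d* nor *Cd3e*, which had low levels of both effector genes, were kept in these splits. They were also kept in the splits by *Cd8a* number and by cycling genes above and in the panel comparison below. None of these was repeated without them. In *Cd8a*-negative T cells, *Gzmb* had 219 CPM with and 832 CPM without *Pdcd1* in CRPR2 and was level in RPR2 (204 and 203 CPM, the first on 3 transcripts). In that class of CRPR2 it was also lower with *Ctla4* (379 against 831 CPM) but higher with *Lag3* (1104 against 627 CPM, log2 ratio 0.82, 0.03 to 1.52) and *Havcr2* (1282 against 608 CPM, 1.08, 0.36 to 1.73). The *Lag3* and *Havcr2* levels rest on 19 and 23 *Gzmb* transcripts. The *Klra8* cells, with 65 of the 136 *Gzmb* transcripts of the class in CRPR2, were kept in these splits. Of its 91 *Klra8* transcripts, 86 lay in cells without *Pdcd1*. No split was repeated without the *Klra8* cells.

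Across the whole panel, *Cd8a* cells with a transcript of *Prf1* or *Gzmb* were set against those with neither (157 against 913 cells in RPR2, 243 against 1242 in CRPR2, median depth 95 against 87 and 94 against 97). Past 2-fold higher were 5.39% of 334 genes in RPR2 and 4.3% of 349 in CRPR2, and past 2-fold lower 21.6% and 32.4%. The 10 genes highest in both sections, ordered by the smaller log2 ratio, were *Colec11*, *Klra8*, *Slc14a1*, *Cd3e*, *Ms4a6b*, *6330403K07Rik*, *Cd3d*, *Rac2*, *Pdcd1* and *Ptprc*. *Colec11* rested on 2 and 4 transcripts in the cells with an effector gene. *Klra8* had 928 against 277 CPM in RPR2 and 1012 against 185 CPM in CRPR2, and *Cd3e* 28556 against 13146 and 24285 against 10458 CPM. *Rac2*, a GTPase of blood cells, had 29683 against 15487 and 32844 against 16251 CPM. The 10 lowest in both were *Dcdc2a*, *Cdh16*, *Fxyd3*, *Retn*, *Cxcr2*, *Areg*, *Ttn*, *Riiad1*, *Gp2* and *Rasd1*, each with at most 3 transcripts in the cells with an effector gene of either section. The ratios in this paragraph have 10 CPM added to each level.

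In *Cd8a* cells *Prf1* and *Gzmb* were found together more often than their separate shares give, but most cells with one had no transcript of the other. At these levels and this depth, a count of 0 does not show that a cell lacks the other gene. The counts thus do not part cells with 1 gene from cells with both. In RPR2, 14 cells had both, where independence gives 5.06. In CRPR2, 22 cells had both, where it gives 9.60. Of *Cd8a* cells with *Gzmb*, 33.3% (19.6% to 49.5%) in RPR2 and 29.3% (19.4% to 41.0%) in CRPR2 also had *Prf1*. Of those with *Prf1*, 10.9% and 11.6% also had *Gzmb*. After thinning, 7 and 10 cells had both, and the RPR2 log2 odds ratio was 1.99 (0.45 to 3.34) and that of CRPR2 1.71 (0.49 to 2.80). Thinned to 30 transcripts, both intervals held 0 (1.63, -0.81 to 3.46, and 1.07, -0.92 to 2.60). Among *Cd8a* cells with *Cd3d* or *Cd3e*, an alternative chosen after the data had been seen, the log2 odds ratio at 50 transcripts was 1.32 (-0.23 to 2.69) and 0.97 (-0.33 to 2.12), with intervals that held 0. In *Cd8a*-negative T cells, 2 cells had both in RPR2 and 12 in CRPR2, and after thinning the log2 odds ratio was 1.80 (-3.68 to 4.67) on 1 cell and 2.83 (1.04 to 4.30) on 5 cells.

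Most transcripts of both genes lay in cells with none of *Cd8a*, *Cd3d* and *Cd3e*. These cells held 77.0% (74.7% to 79.0%) of *Prf1* transcripts in RPR2 and 77.4% (75.5% to 79.3%) in CRPR2, and 89.1% (87.5% to 90.5%) and 78.1% (76.2% to 79.9%) of *Gzmb* transcripts. *Cd8a* cells held 11.4% and 13.1% of *Prf1* and 6.12% and 7.75% of *Gzmb*. By CPM the class was low, since it held 147134 cells in RPR2 and 332719 in CRPR2. *Prf1* had 74.1 (RPR2) and 39.2 CPM (CRPR2), and *Gzmb* 95.3 and 42.8 CPM. The ratios of CRPR2 to RPR2 were -0.92 (-1.03 to -0.81) and -1.16 (-1.26 to -1.05) on the log2 scale. The share of cells with NE transcripts in the class moved with these ratios. Cells with at least 2 NE transcripts were 13.8% of it in RPR2 and 71.9% in CRPR2, and without them *Prf1* had 83.7 and 88.1 CPM and *Gzmb* 109 and 100 CPM, with the *Prf1* ratio turned to 0.075 (-0.051 to 0.20) and the *Gzmb* ratio at -0.12 (-0.24 to -0.01). At this depth, a count of 0 for the 3 genes does not show that a cell is not a T cell.

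Cells with *Klra8* and none of the 3 T cell genes had high levels of both genes. There were 1333 such cells in RPR2 and 2033 in CRPR2. *Prf1* had 4908 (RPR2) and 2921 CPM (CRPR2), against 29.3 and 19.2 CPM in the cells without *Klra8*. *Gzmb* had 3807 and 3001 CPM, against 60.9 and 22.3 CPM. These levels were above those of *Cd8a* cells as a whole in both sections. NE-like cells held 33 of the 2107 *Klra8* transcripts outside the T cell genes in RPR2 and 765 of the 2930 in CRPR2. Their part in these levels was not tested. The few *Cd8a* cells that had *Klra8* themselves (26 in RPR2, 38 in CRPR2) had 2746 and 4610 CPM of *Prf1* and 3138 and 3919 CPM of *Gzmb*, on 7 to 20 transcripts. Among the *Klra8* cells with none of the T cell genes, both levels were higher with more than 1 *Klra8* transcript. Most of these cells, 1069 in RPR2 and 1738 in CRPR2, had 1 *Klra8* transcript. In them *Prf1* had 1126 (RPR2) and 596 CPM (CRPR2) and *Gzmb* 977 and 664 CPM, below *Cd8a* cells as a whole. With 3 or more, *Prf1* had 24782 CPM (178 cells) and 21902 CPM (205 cells), and *Gzmb* 19899 and 21810 CPM. Of the cells with 3 or more *Klra8* transcripts, 87.1% in RPR2 and 82.4% in CRPR2 had *Prf1*, and 56.7% and 68.3% had *Gzmb*.

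Cells with 3 or more transcripts of an effector gene were for the most part these. Of 132 cells with at least 3 *Prf1* transcripts in RPR2, 80.3% (72.5% to 86.7%) had *Klra8* and none of the T cell genes, and 6.06% were *Cd8a* cells. Of 146 in CRPR2, the shares were 84.9% and 5.48%. Of cells with at least 3 *Gzmb* transcripts (110 and 202), 73.6% and 62.4% had *Klra8* and none of the T cell genes, and 12.7% and 11.4% were *Cd8a* cells. The highest counts in 1 cell were 12 (RPR2) and 13 (CRPR2) for *Prf1* and 19 and 13 for *Gzmb*, against 5 and 4 for *Prf1* and 9 and 7 for *Gzmb* in any *Cd8a* cell.

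It was also there that both genes met in the same cell. Of cells with *Klra8* and none of the T cell genes that had *Gzmb*, 85.9% (80.2% to 90.5%) in RPR2 and 80.3% (75.0% to 84.9%) in CRPR2 also had *Prf1*. Among *Cd8a* cells with *Gzmb*, the shares were 33.3% and 29.3%. Such shares also depend on the level of *Prf1*. It was 4908 and 2921 CPM in these *Klra8* cells, against 1699 and 1525 CPM in *Cd8a* cells. Over all cells with none of the 3 genes, 195 (RPR2) and 256 (CRPR2) had both genes, where independence gives 4.97 and 2.71. After thinning, the RPR2 log2 odds ratio was 7.17 (6.80 to 7.54) and that of CRPR2 8.72 (8.38 to 9.04), a measure that also rises where a class mixes cell types with and without the genes. Within the *Klra8* cells it was 5.25 (4.57 to 5.94) and 5.98 (5.37 to 6.60). Among cells without *Klra8* it was 4.46 (3.42 to 5.35) and 6.33 (5.55 to 7.02). The odds ratio intervals of the *Klra8* cells lay above those of the *Cd8a* cells in each section, and a difference between classes was not tested. Cells with and without the genes were mixed among the *Klra8* cells too, which can raise their odds ratio. *Prf1* was in 5.52% (RPR2) and 3.68% (CRPR2) of those with 1 *Klra8* transcript, and in 87.1% and 82.4% of those with 3 or more.

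**Figure D3:**
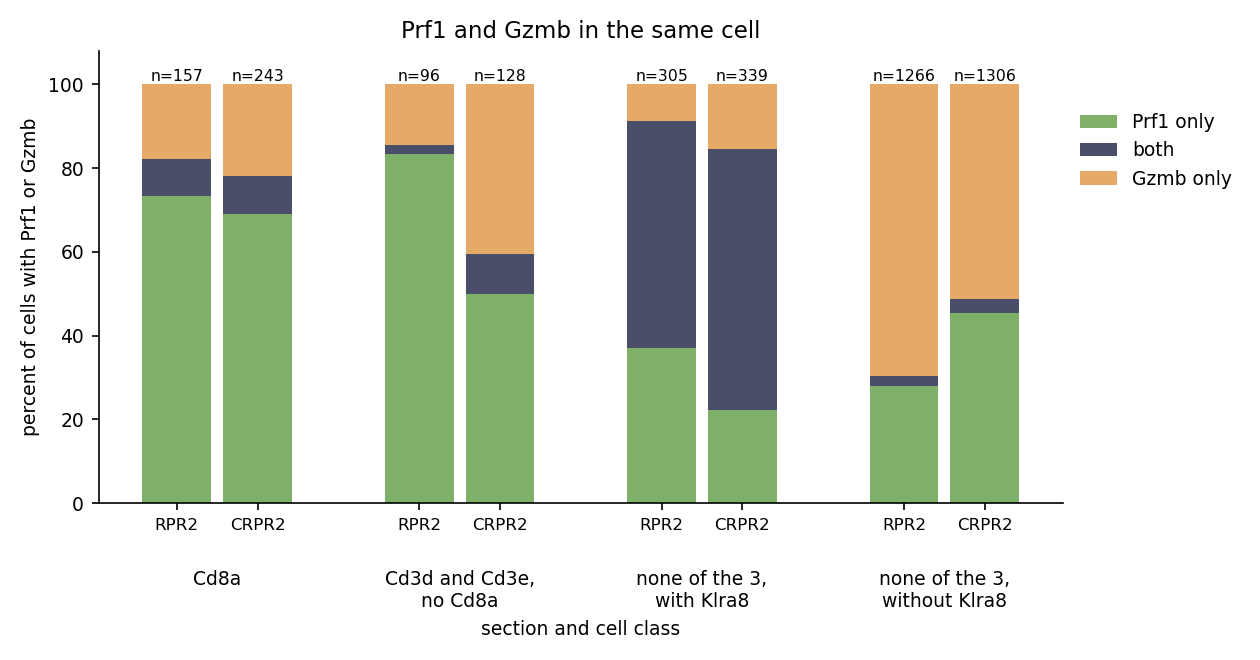
Cells with at least 1 transcript of *Prf1* or *Gzmb*, split into those with *Prf1* only (green), both (dark) and *Gzmb* only (orange), in percent of such cells (vertical axis), for each section and class, with their number n above each bar. Both genes meet in most *Klra8* cells that have either gene, *Prf1* alone leads in *Cd8a* cells, and *Gzmb* alone leads in cells with none of the 3 genes and no *Klra8*. A gene alone means that no transcript of the other was counted.

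The cells with both genes and no T cell gene shared further genes. Of the 195 in RPR2 and 256 in CRPR2, 84.6% and 82.8% had *Klra8*, 92.8% and 90.6% *Ptprc*, 61.5% and 70.3% *Itgam* (the integrin CD11b of natural killer and myeloid cells), 85.6% and 82.0% *Rac2* and 48.7% and 48.8% *Satb1*. Of the cells with neither gene, 0.706% and 0.512% had *Klra8* and 9.52% and 8.45% had *Ptprc*. For *Itgam*, *Rac2* and *Satb1* no such share is given here, so their values are not set against a background. Of the 4 checkpoint genes, 2 are given for these cells, with *Lag3* in 3 and 1 of them and *Havcr2* in 2 and 7. Over the whole class, *Lag3* had 96.9 (RPR2) and 187 CPM (CRPR2) and *Havcr2* 329 and 424 CPM. In cells of the class with *Ctla4*, *Prf1* had 538 against 71.4 CPM without it in RPR2 and 159 against 38.6 CPM in CRPR2. *Gzmb* had no common direction there (22.0 against 95.8 and 102 against 42.5 CPM). Many of the cells with both genes also held endothelial transcripts. *Calcrl*, a receptor chain of lung endothelium, was in 75.4% and 71.1%, and its share in cells with neither gene is not given here. By their markers, of which *Calcrl* is one, 55.9% and 48.4% counted as endothelial-like, against 37.3% and 9.97% of the cells with neither gene. Whether these transcripts came from neighboring cells was not tested.

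In RPR2, *Gzmb* without *Prf1* was for the most part found in endothelial-like cells. Of the 908 RPR2 cells with *Gzmb* alone and no T cell gene, 80.2% were endothelial-like and 7.71% had *Ptprc*. *Calcrl* was in 91.0% of them and *Tmem100* in 89.5%, but both are among the markers that set the endothelial-like class. These shares are thus no separate evidence of it. Of the 720 CRPR2 cells, 31.9% were endothelial-like, 28.9% NE-like and 26.7% epithelial-like. The makeup of the sections differed too, since of the cells with neither gene, 37.3% (RPR2) and 9.97% (CRPR2) were endothelial-like, 9.79% and 52.6% NE-like and 33.9% and 25.2% epithelial-like. To keep leukocytes out, cells with *Klra8* or *Ptprc* were removed. In the endothelial-like cells that were left (50638 in RPR2, 29587 in CRPR2), *Gzmb* had 129 CPM (693 transcripts) in RPR2 and 61.6 CPM (201 transcripts) in CRPR2. Of the 680 and 190 cells with *Gzmb*, 670 and 184 had 1 transcript. Whether the *Gzmb* probes also bind another transcript in these cells was not tested. Epithelial-like cells had 18.2 and 18.3 CPM, fibroblast or mural-like cells 22.7 and 14.3 CPM and NE-like cells 8.65 and 11.3 CPM. The endothelial level was 7.07-fold (RPR2) and 3.36-fold (CRPR2) that of epithelial-like cells, at median depths of 101 and 103 transcripts against 106 and 109. *Prf1* was 24.0 and 25.4 CPM in the endothelial-like cells, 2.12-fold and 2.63-fold the epithelial level. Endothelial-like cells held *Gzmb* in 1.34% (RPR2) and 0.642% (CRPR2) of cells (thinned, 0.647% and 0.308%) against 0.201% and 0.202% of epithelial-like cells. *Gzmb* in these cells was lower in CRPR2 (log2 ratio -1.06, -1.30 to -0.84) and *Prf1* was level (0.08, -0.33 to 0.49).

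**Figure D4:**
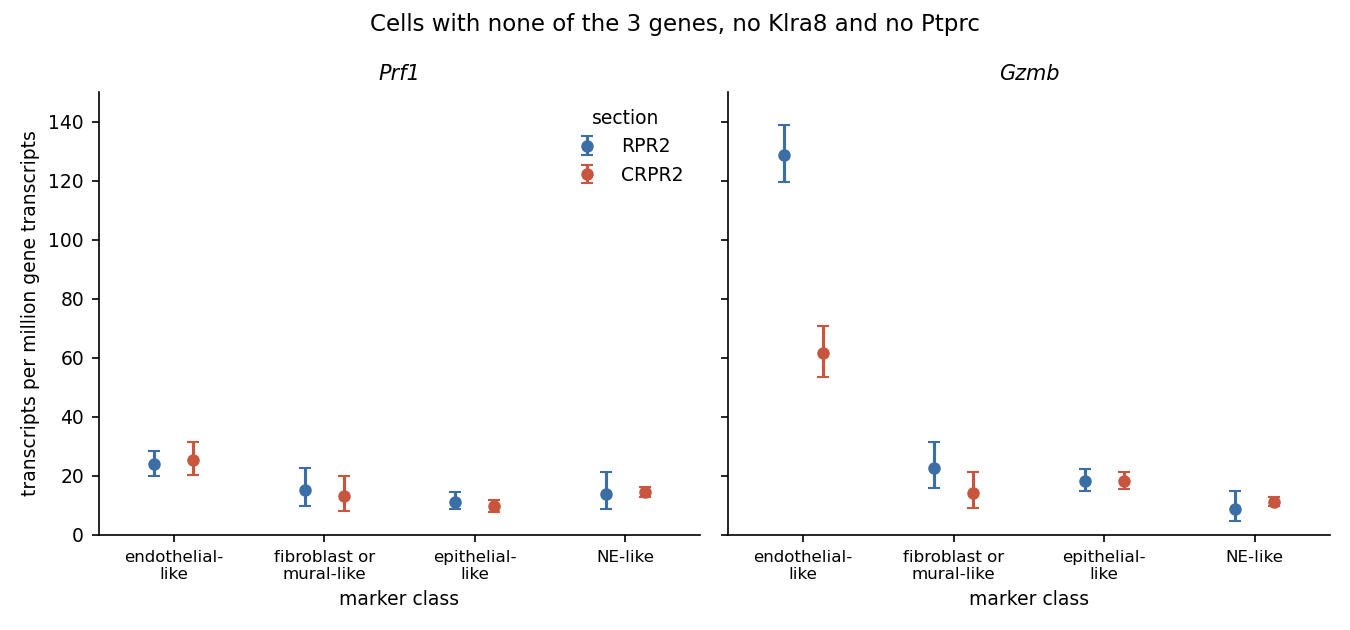
Level of *Prf1* (left) and *Gzmb* (right), in CPM, in cells with none of the 3 T cell genes and neither *Klra8* nor *Ptprc*, by marker class (horizontal axis), for RPR2 (blue) and CRPR2 (red), with exact 95% Poisson intervals. *Gzmb* stands out in endothelial-like cells (129 and 61.6 CPM), and *Prf1* has at most 25.4 CPM in the 4 classes.

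The balance of the genes differed between some kinds of cells. Per *Prf1* transcript, *Klra8* cells without T cell genes held 0.776 *Gzmb* transcripts in RPR2 (0.693 to 0.868) and 1.03 in CRPR2 (0.927 to 1.14). Endothelial-like cells without *Klra8* and *Ptprc* held 5.37 (4.45 to 6.53) and 2.42 (1.87 to 3.17), above the *Klra8* cells in both sections with intervals that did not overlap. Epithelial-like cells without *Klra8* and *Ptprc* also lay above the *Klra8* cells, at 1.61 (1.15 to 2.27) and 1.90 (1.46 to 2.48), and in CRPR2 their interval overlapped that of the endothelial-like cells. NE-like cells without *Klra8* and *Ptprc* held 0.619 (0.285 to 1.29) and 0.780 (0.645 to 0.943). Their interval overlapped that of the *Klra8* cells in both sections. *Prf1* itself was low there, at 13.97 (RPR2) and 14.44 CPM (CRPR2), and NE-like cells served as background above. In the epithelial-like cells it was lower still, at 11.3 and 9.66 CPM, close to the highest negative control probe (9.93 and 8.43 CPM). The ratios of the epithelial-like and NE-like cells can therefore not be told from background. The endothelial-like ratio also rests on a low *Prf1* level, 24.0 (RPR2) and 25.4 CPM (CRPR2). That was 1.72-fold and 1.76-fold the level of these NE-like cells, and how much of it was background was not tested. *Cd8a* cells with *Mki67* or *Top2a* held 2.73 (1.33 to 6.03) and 0.967 (0.665 to 1.41), against 0.451 (0.337 to 0.598) and 0.530 (0.410 to 0.683) in the other *Cd8a* cells. In *Cd8a*-negative T cells, the values were 2.29 and 3.05 with these genes and 0.157 and 1.13 without. In these 2 classes cycling cells thus held more *Gzmb* per *Prf1* in both sections, and the intervals were apart in all but the *Cd8a* cells of CRPR2. Cells with 1 of *Cd3d* and *Cd3e* had no common direction (1.50 with and 0.538 without in RPR2, 1.47 and 1.69 in CRPR2), and cells with none of the 3 genes went the other way (0.585 and 1.37 in RPR2, 1.01 and 1.13 with overlapping intervals in CRPR2).

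**Figure D5:**
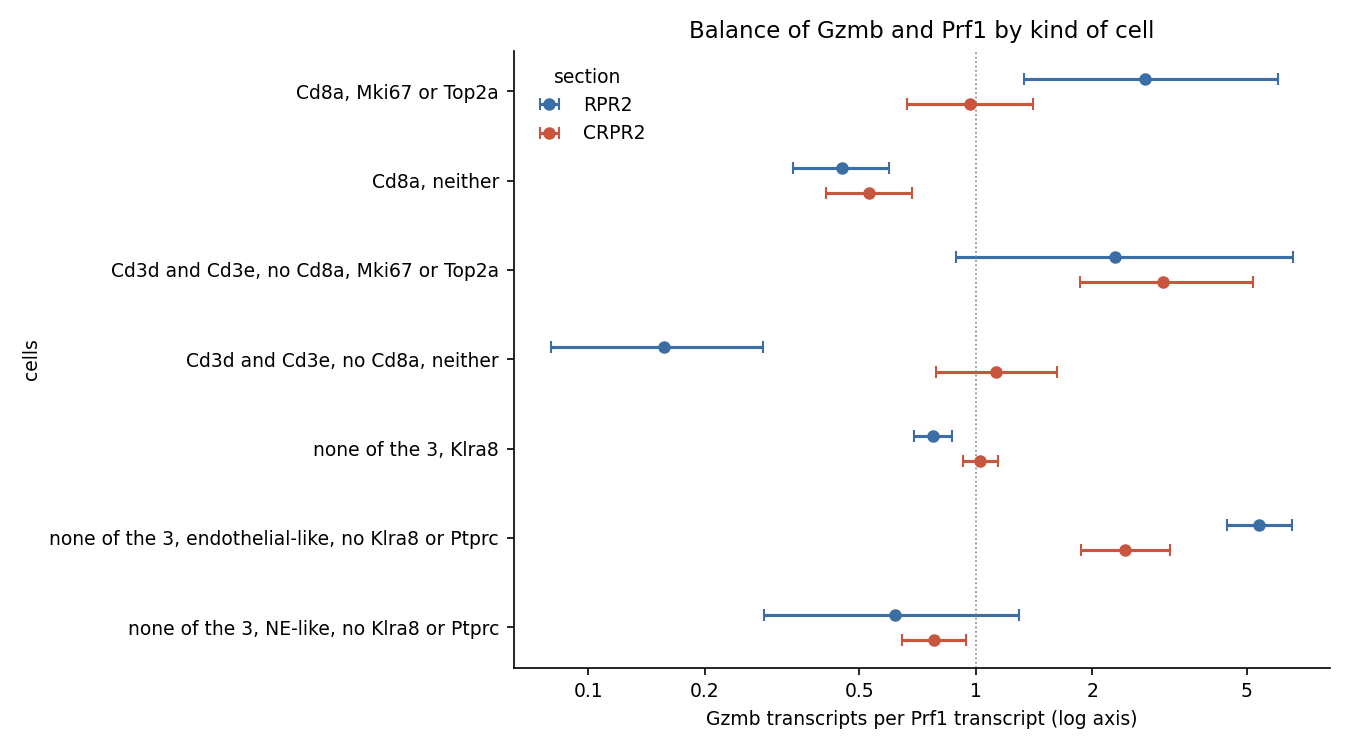
*Gzmb* transcripts per *Prf1* transcript (horizontal log axis) in 7 kinds of cells, for RPR2 (blue) and CRPR2 (red), with exact 95% intervals from the counts; the dotted line marks 1. Endothelial-like cells lie at 5.37 and 2.42, on a low level of *Prf1*. *Cd8a* cells and *Cd8a*-negative T cells lie further right with *Mki67* or *Top2a* than without.

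Over 18 points, the 3 classes and 6 marker classes in each section, *Gzmb* was the gene most like *Prf1* in level (Pearson r = 0.90 of log2 values with 10 CPM added), ahead of *Slc10a1* (0.84), *Trp53* (0.83), *Pdcd1* (0.82) and *Slc14a1* (0.82). The genes most like *Gzmb* were *Prf1*, *Klra8* (0.86), *Pdcd1* (0.80), *Ctla2a* (0.78) and *Trp53* (0.78). Only genes not used to form a class were ranked, so *Cd8a*, *Cd3d*, *Cd3e* and the markers of the 6 marker classes were left out. The points share sections and depth, and the marker classes are parts of the class with none of the 3 genes. The values are a description. *Klra8* came 9th for *Prf1*, at 0.80.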

How the data were processed

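The data are 2 lung sections on 1 Xenium In Situ slide. For each section the authors deposited a matrix of raw counts, the number of transcripts of a gene assigned to a cell, with cell outlines drawn by expanding the nuclei. The genome build is not given in the sources used here, and cell positions and images were not used. Of 541 features, 479 were genes. A cell needed at least 20 transcripts, which removed 1903 (RPR2) and 2236 (CRPR2), and doublets were not called. A level (CPM) is the sum of a gene over a class, divided by all gene transcripts of the class and multiplied by 1e+06. Shares of cells were also computed on a random draw of 50 transcripts from every cell, without 15856 and 34059 shallower cells. Shares have Clopper-Pearson, sums Poisson, and ratios and odds ratios exact conditional intervals, at 95%. Each genotype has 1 section, so the text holds no test and no p-value.

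A cell with none of the 3 genes took the marker class with most transcripts (at least 3, from at least 2 genes, and more than any other), over 6 classes with at least 3 markers on the panel. Lists with fewer were not used as classes (natural killer cell 1, B cell 2, plasma cell 1, mast cell or basophil 1, plasmacytoid dendritic cell 0, dendritic cell 2). The text names *Prf1*, *Gzmb*, the 3 class genes, listed panel genes, the 10 genes highest and the 10 lowest in ratio between *Cd8a* cells with and without an effector gene, and, of genes not used to form a class, the 5 most like each in level. Genes outside that rule (*Ptprc*, *Itgam*, *Rac2*, *Calcrl*, *Tmem100*, *Ctla2a* in cell profiles) were chosen after their values were seen, as were the splits of classes by *Cd8a* number, *Klra8*, cycling and checkpoint genes. The genes and lists were chosen with earlier results of these data known. The intervals and thinning were tested on simulated data in which the transcripts of a gene did not gather in cells. Intervals used scipy 1.17.1 under Python 3.11.15. The result for 1 further split of the cells is not reported here.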

Additional observations from a re-analysis of the deposited data

Results flagged for a closer look

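*Gzmb* moved in opposite directions between the sections in different classes of cells. In cells with *Cd3d* and *Cd3e* but no *Cd8a*, the log2 ratio of CRPR2 to RPR2 was 1.72 (1.13 to 2.35), and in cells with none of the 3 genes it was -1.16 (-1.26 to -1.05), both intervals lying beyond 0. The difference between the classes was not tested, since each genotype has 1 section. The second value moved to -0.12 without cells that had at least 2 NE transcripts, and the first to 0.94 without *Klra8* cells. On thinned shares of cells, which count cells and not transcripts, the first was 1.34 with a wider interval (0.35 to 2.46). *Prf1* had -0.63 (-1.08 to -0.18) and -0.92 (-1.03 to -0.81) in these classes. The first interval held 0 on thinned shares of cells (-0.34, -1.0 to 0.32) and with 2 transcripts of each class gene (-0.65, -1.37 to 0.06), and the second value turned to 0.075 (-0.051 to 0.20) without cells that had at least 2 NE transcripts.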

How the results depend on the processing

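Over the listed settings, 91 of 103 recomputed values stayed within the interval of the value reported, 11 moved out of it and 1 turned its direction. A turn was counted only where the reported interval did not hold 0. In *Cd8a* cells, where it did, some ratios changed sign within it. *Prf1* had 0.12 and *Gzmb* 0.22 without cells that had at least 2 NE transcripts. *Gzmb* also had 0.14 with the 2-transcript rule and 0.26 on thinned shares. Part of the 91 could not move. Minimums of 10 and 50 transcripts leave cells thinned to 50 as they were, so co-occurrence stayed the same. The rule that *Cd3d* or *Cd3e* is enough does not touch *Cd8a* cells or cells with none of the 3 genes, and the 2-transcript rule does not touch the latter. With cells that had at least 2 NE transcripts left out, the log2 ratio of CRPR2 to RPR2 in cells with none of the 3 genes turned to 0.075 for *Prf1* and moved to -0.12 for *Gzmb*. On thinned shares of cells, these ratios were -0.77 and -1.33. *Gzmb* in *Cd8a*-negative T cells had 1.05 where 2 transcripts of each of *Cd3d* and *Cd3e* were needed. Co-occurrence in cells with none of the 3 genes, as a log2 odds ratio, was 6.06 (RPR2) and 7.46 (CRPR2) with no thinning, 5.95 and 7.49 with thinning to 100 transcripts, and 8.26 in CRPR2 without cells that had at least 2 NE transcripts. That last setting also moved the CRPR2 share of transcripts in this class to 73.2% for *Prf1* and 76.1% for *Gzmb*. Among the alternatives chosen after the data had been seen, 17 of 26 stayed within the interval. Without *Klra8* cells, *Gzmb* in *Cd8a*-negative T cells had 0.94. In cells with none of the 3 genes, *Prf1* then had -0.61 and *Gzmb* -1.45, co-occurrence was 4.46 and 6.33, and the share of transcripts was 58.5% and 65.9% for *Prf1* and 85.1% and 71.3% for *Gzmb*. The cause was not tested in any of these. The 2-transcript rule left intervals of co-occurrence in *Cd8a* cells that held 0 (0.90, -1.21 to 2.63, in RPR2 and 0.66, -0.95 to 2.03, in CRPR2), as did thinning to 30 (1.63, -0.81 to 3.46, and 1.07, -0.92 to 2.60) and, in RPR2, to 100 transcripts (0.51, -2.75 to 2.77). In *Cd8a*-negative T cells of CRPR2, thinning to 100 gave 2.08 (-1.17 to 4.29). Thinning to 100 transcripts gave no odds ratio for *Cd8a*-negative T cells of RPR2, where no cell then had both genes. Small counts limit the T cell classes, where a class held as few as 29 transcripts of a gene. No paired analysis was possible because each genotype has 1 section and no test was run.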
